A study of Mus musculus with 6 samples.

Results

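Ribosome biogenesis factors, the proteins that transcribe, cleave, modify and package ribosomal RNA in the nucleolus, were followed in mouse aortic smooth muscle cells after knockdown of Sirt6, a nuclear NAD-dependent deacylase. The genes were chosen by name: the rule, which was written with earlier results of these data known, took symbols of the Nop, Nol, Rrp, Utp, Polr1, Noc, Tsr and related families together with Myc and Odc1. It found 68 genes among the 7384 that the deposited tables list. RNA was sequenced in 3 libraries labelled siSirt6 and 3 labelled Control, all from cells taken 48 h after treatment. The cells were vascular smooth muscle cells cultured from aorta, the siSirt6 group received small interfering RNA against Sirt6, and the sources used here do not say what the Control group received. The strain, sex and age of the mice and how many gave cells are not stated there either. Nothing says that the 3 libraries of a group came from separate cultures or animals, so p-values measure the spread between these libraries, which may be technical.

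Ribosome production starts when RNA polymerase I copies the ribosomal DNA into 1 long precursor. Small nucleolar ribonucleoproteins (snoRNPs) of the box C/D and box H/ACA kinds then guide methylation and pseudouridylation of that precursor, the small subunit processome folds and cuts its first part into the 40S particle, and a separate set of factors builds the 60S particle. The transcription factor MYC is known to raise many of these genes together in growing cells, and ribosome production rises and falls with cell growth.

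The 4 promoter windows below are shown because they hold the sequence CACGTG, the E-box bound by MYC and its partners, and because they belong to the 3 genes with the largest rises among members with that sequence and to the assembly factor that was lower. Each covers 250 bases before and 50 bases after the gene's start in RefSeq (GRCm38.p6), is written 5′ to 3′ on the gene's strand, and has CACGTG in capitals. Mybbp1a lies at chr11:72441077-72441376, Wdr43 at chr17:71615965-71616264, Nop2 at chr6:125131633-125131932 and Tsr1 at chr11:74897830-74898129, all on the plus strand. The RefSeq start of Wdr43 lies 320 bases downstream of its GENCODE start, so its window lies inside the gene as GENCODE draws it.
Mybbp1a: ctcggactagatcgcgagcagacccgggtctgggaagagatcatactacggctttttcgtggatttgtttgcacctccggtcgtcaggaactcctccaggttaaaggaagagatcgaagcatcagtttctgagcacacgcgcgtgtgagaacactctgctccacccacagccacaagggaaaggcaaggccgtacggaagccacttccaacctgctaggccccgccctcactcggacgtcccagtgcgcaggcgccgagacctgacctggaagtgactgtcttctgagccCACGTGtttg
Wdr43: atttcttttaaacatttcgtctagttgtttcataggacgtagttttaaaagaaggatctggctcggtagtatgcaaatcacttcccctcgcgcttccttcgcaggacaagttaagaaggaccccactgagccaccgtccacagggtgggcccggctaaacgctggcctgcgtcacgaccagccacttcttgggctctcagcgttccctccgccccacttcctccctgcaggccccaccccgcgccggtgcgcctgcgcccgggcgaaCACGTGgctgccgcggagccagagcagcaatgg
Nop2: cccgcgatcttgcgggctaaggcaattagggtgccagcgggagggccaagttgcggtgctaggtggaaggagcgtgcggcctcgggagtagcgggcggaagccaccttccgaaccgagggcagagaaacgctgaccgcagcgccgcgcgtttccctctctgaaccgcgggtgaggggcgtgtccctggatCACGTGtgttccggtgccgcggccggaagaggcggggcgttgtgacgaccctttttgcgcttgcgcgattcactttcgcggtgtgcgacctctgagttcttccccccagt
Tsr1: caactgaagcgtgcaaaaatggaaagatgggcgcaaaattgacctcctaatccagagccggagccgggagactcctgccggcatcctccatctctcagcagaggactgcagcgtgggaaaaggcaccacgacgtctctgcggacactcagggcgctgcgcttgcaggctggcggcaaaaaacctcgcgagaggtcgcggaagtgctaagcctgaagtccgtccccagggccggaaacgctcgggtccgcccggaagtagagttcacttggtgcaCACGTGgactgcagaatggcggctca

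Mybbp1a rose most of the 68 genes and Tsr1 fell, and both windows hold 1 CACGTG in the first transcribed bases, starting 40 and 24 bases after the start. Promoter windows were found for 57 of the 68 members, 66 windows in all, and since some genes have several overlapping windows the shares are given by gene. CACGTG, which reads the same on both strands, was in 14 of 57 members (24.6%), in 8.09% of all 27025 mouse genes with windows of the same length and in 12.3% of other tested genes. The 14 members with the E-box had a median log2 fold change of 0.39 and the 43 without it 0.40, with overlapping ranges. CCGGAAG, the core that ETS factors bind, searched on both strands, was in 36.8% of members, 9.93% of all genes and 19.6% of other tested genes. It was in 23.3% of other genes called higher and 16% of those called lower, where CACGTG was in 12.2% and 12.4%. CACGCG was in 29.8% of members, 10.5% of all genes and 20.4% of other tested genes. AAGATGGCG, bound by YY1, was in 1.75%, 1.64% and 4.02% in the same order. A palindrome of 10 bases centred on CGCG was in 1 member, Nol9 (1.75%), 0.525% of all genes and 1.30% of other tested genes, and the NRF1 palindrome in 0%, 1.07% and 2.36%. None of the 16 CACGTG matches, which count 1 site of Utp25 in several overlapping windows, overlapped a match of another of the 6 motifs. These are matches of letters and not measured binding. The members without a window in the table were Bop1, Fbl, Gnl2, Myc, Nol6, Nop53, Npm1, Rrp12, Rrs1, Utp11 and Utp23.

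Sirt6 itself stood at 44.5, 59.8 and 63.5 normalised read counts in the siSirt6 libraries, against 252, 257 and 270 in the Control libraries, a ratio of 0.215 (log2 fold change -2.21 ± 0.14 SE; limma adjusted p = 1.16e-15). The listed genes took between 14614192 and 15526399 reads in the siSirt6 libraries and between 14458847 and 14563794 in the Control libraries, and the whole depth is unknown. The tables hold almost only genes that differ: 99.8% of the 7179 genes tested passed an adjusted p of 0.05 in either direction, and 96.8% had 3 values in one group that did not overlap the 3 in the other. Passing the test is therefore no distinction within these tables, and direction and size carry the description. The smooth muscle markers Acta2 and Tpm2 were abundant, with means of 96836 and 15892 in siSirt6 and 58253 and 10943 in Control, while Tagln was at 348 in siSirt6 and 179 in Control. The marker counts that follow stand beside 50.5% of all tested genes called higher and 49.3% called lower. Of 10 smooth muscle markers 8 were tested, 7 of which rose, and Myocd and Des were not analysed here. Markers of endothelial cells were higher in 9 of 9 tested cases (9 of 10 listed), and their summed level ran from 1916 to 2069 in siSirt6 and from 1047 to 1202 in Control. Of 12 macrophage and leukocyte markers 3 were listed, and all of these rose. Their sums were 1978 to 2018 in siSirt6 and 1777 to 1822 in Control, most of it from Lyz2 (1616 and 1498). Adventitial fibroblast markers fell in 6 of 9 tested cases and rose in 3. Their sums ran from 76166 to 77481 in siSirt6 and from 91799 to 92745 in Control. Most of these sums came from Gsn, at 57433 in siSirt6 and 72100 in Control, so they describe mainly that gene. The part of these cell types in the results that follow was not tested, and in bulk RNA a change in the number of cells of a type and in RNA per cell cannot be told apart.

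The listed ribosome biogenesis genes were higher after Sirt6 knockdown almost without exception. GENCODE vM21 holds 78 protein-coding symbols that fit the rule, and 11 of these symbols are outside the tables. Since the tables hold almost only genes that differ, nothing can be said of those genes. All 68 members passed the filter on low values, 66 rose and 2 fell, where 50.5% of all tested genes were called higher and 49.3% lower. Their median log2 fold change was 0.39, an increase of 1.31-fold at the median, beside 0.08 over all tested genes. The middle 50% of members lay between 0.30 and 0.54, while the middle 50% of all tested genes lay between -0.37 and 0.36. The rise was moderate for most members and ran from log2 0.13 (Bms1) to 0.84 (Mybbp1a) among those that rose. At least 1.5-fold higher were 11 members, which is 16.2% of them, beside 11.1% of all tested genes. With libraries scaled to the totals of listed reads, 3 members were at least 1.5-fold higher, and with TMM factors 7. Under listed totals 56 members were called higher, beside 37.7% of all tested genes. All 68 had group values that did not overlap, beside 96.8% of all tested genes. Together the 68 genes took 0.611%, 0.616% and 0.606% of the listed values in the siSirt6 libraries, against 0.487%, 0.484% and 0.485% in the Control libraries. All listed values together came to between 1.521e+07 and 1.535e+07 in siSirt6 libraries and between 1.407e+07 and 1.411e+07 in Control libraries. The summed level of the 68 genes was 93433 ± 1176 in siSirt6 and 68399 ± 304 in Control (SD, n = 3 each), a ratio of 1.37. Ncl and Npm1 made up 19.0% to 20.1% of that sum, and without them the ratio was 1.35.

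**Figure D1:**
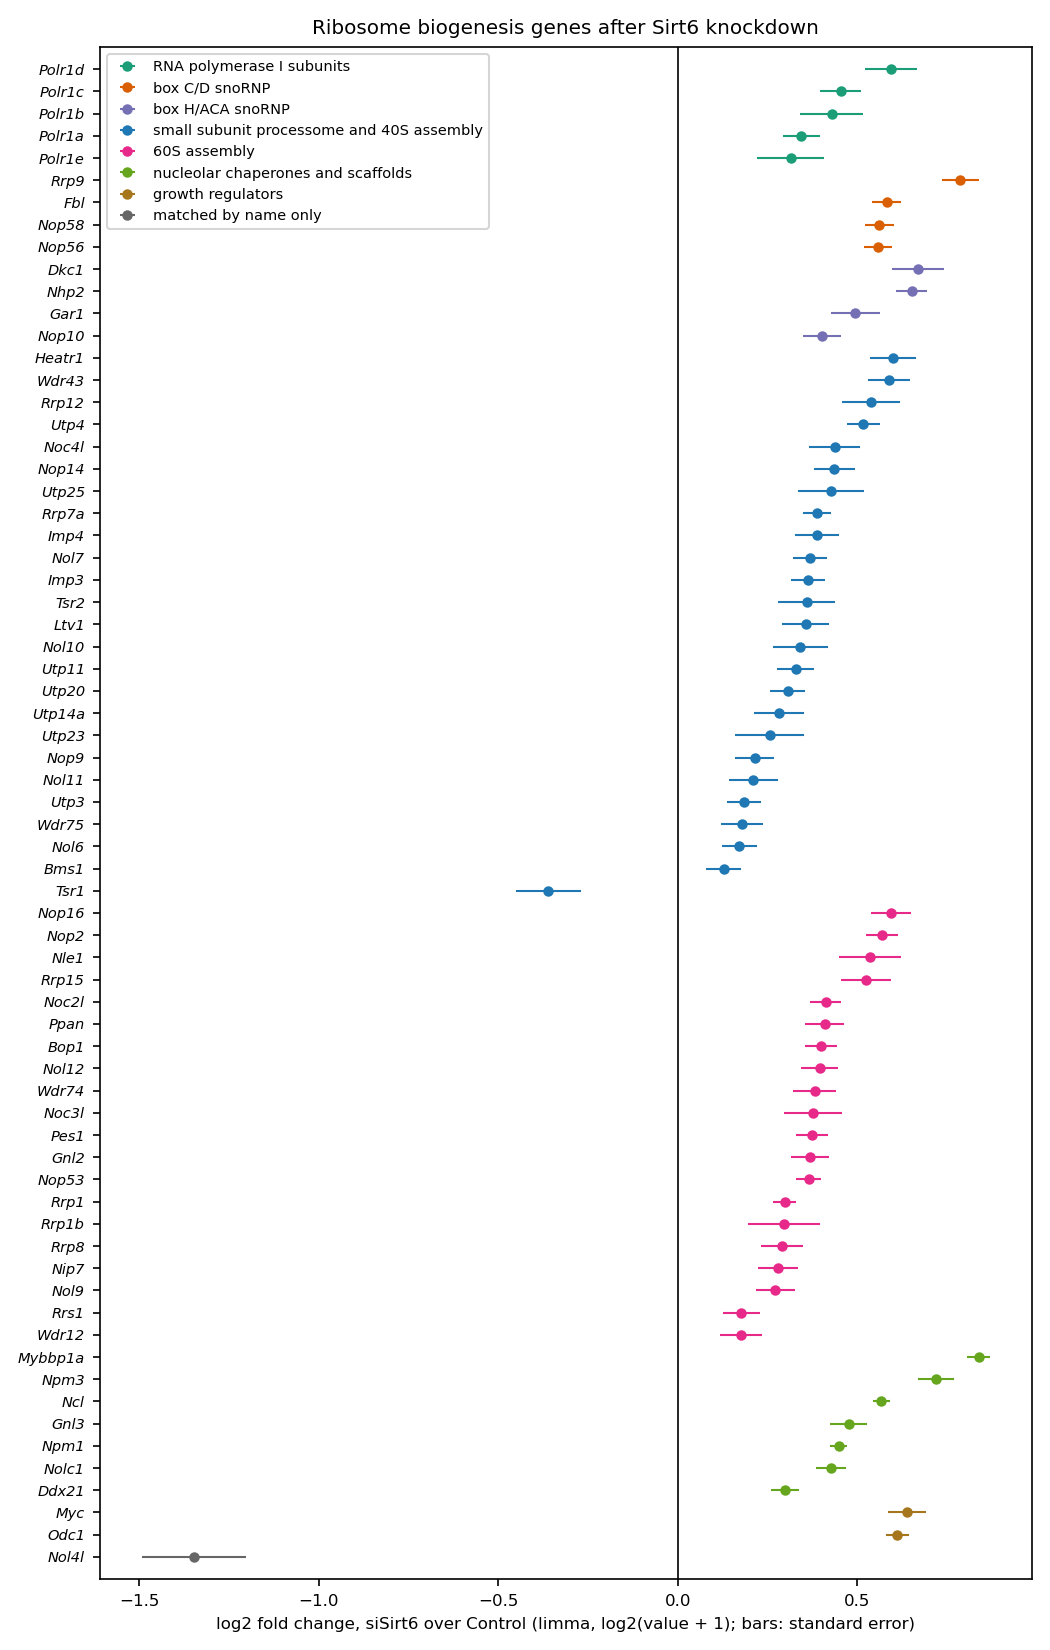
Log2 fold change of siSirt6 over Control for all 68 genes on the horizontal axis, with bars for the standard error, grouped by role from RNA polymerase I downward. All points lie right of zero except those of Tsr1 (-0.36) and Nol4l (-1.35).

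All 5 subunits of RNA polymerase I that the name rule covers rose, where 50.5% of all tested genes were called higher. Their log2 fold changes lay between 0.31 and 0.59. Polr1d, a small subunit shared with RNA polymerase III, stood at 2652, 3064 and 2503 normalised read counts in siSirt6 libraries, against 1728, 1849 and 1855 in Control libraries. It rose 1.51-fold (log2 0.59 ± 0.07 SE; limma adjusted p = 1.02e-04), with the widest spread among siSirt6 libraries of the 5 subunits. Polr1c, its partner in both polymerases, had 860, 902 and 867 in siSirt6 and 674, 607 and 640 in Control and rose 1.37-fold. The largest subunit, Polr1a, which carries the catalytic site, had 1005, 967 and 967 in siSirt6 and 778, 749 and 788 in Control, a rise of 1.27-fold. No library of one group reached into the other for these genes, which holds for 96.8% of all tested genes. Polr1b, the second largest subunit, rose 1.35-fold and Polr1e 1.24-fold.

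All 4 box C/D snoRNP genes of the set rose, beside 50.5% of all tested genes called higher. Their log2 fold changes lay between 0.56 and 0.79. The methyltransferase gene Fbl had 1850, 1781 and 1795 normalised read counts in siSirt6, against 1207, 1206 and 1212 in Control, and rose 1.5-fold (log2 0.58 ± 0.04 SE; limma adjusted p = 7.24e-15). Its scaffold partner Nop56 had 2248, 2188 and 2120 in siSirt6 and 1432, 1498 and 1522 in Control. The other scaffold, Nop58, had 1928, 1874 and 1838 in siSirt6 and 1298, 1288 and 1236 in Control. Nop56 and Nop58 rose 1.47-fold and 1.48-fold. With a smooth trend on length and GC taken out, the log2 fold changes were 0.28 for Fbl, 0.41 for Nop56 and 0.48 for Nop58. Rrp9, the protein specific to the U3 snoRNP that starts processing of the small subunit, rose further. It had 1188, 1141 and 1136 in siSirt6 and 700, 656 and 653 in Control, a rise of 1.73-fold (log2 0.79 ± 0.05 SE; limma adjusted p = 2.15e-15). Per kilobase of transcript, Fbl mRNA stood at 1511 in siSirt6 and 1010 in Control, Nop56 at 1164 and 791, and Nop58 at 1098 and 744 in the same order. The gene of the fourth core protein, Snu13, lies outside the name rule. It rose 1.26-fold and stood lower, at 820 per kilobase in siSirt6 and 649 in Control.

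In the box H/ACA snoRNP, all 4 core genes rose, beside 50.5% of all tested genes called higher. Dkc1 encodes dyskerin, the pseudouridine synthase, which also sits in telomerase. It had 555, 599 and 545 normalised read counts in siSirt6, against 372, 331 and 366 in Control, and rose 1.59-fold (log2 0.67 ± 0.07 SE; limma adjusted p = 6.08e-10). Nhp2 had 1625, 1596 and 1551 in siSirt6 and 1040, 988 and 1009 in Control, a rise of 1.57-fold. The arginine- and glycine-rich partner Gar1 had 741, 741 and 667 in siSirt6 and 557, 458 and 514 in Control, and rose 1.41-fold. Nop10, the smallest partner, had 983, 1106 and 1004 in siSirt6 and 780, 778 and 780 in Control, and rose 1.32-fold. Groups did not overlap for any of the 4, nor for 96.8% of all tested genes. The enzyme was the lowest of them per kilobase, at 202 in siSirt6 and 127 in Control, while Nhp2 stood at 1526 and 972.

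Of the 25 genes of the small subunit processome and 40S assembly, 24 rose and 1 fell. Their median log2 fold change was 0.36, and 50.5% of all tested genes were called higher. The UtpA complex binds the precursor first. Of its subunits, Heatr1 had 720, 708 and 730 normalised read counts in siSirt6, against 435, 497 and 494 in Control, and rose 1.51-fold (log2 0.60 ± 0.06 SE; limma adjusted p = 5.02e-10). Wdr43 had 892, 1048 and 928 in siSirt6 and 609, 651 and 642 in Control, also 1.51-fold. Utp4 had 1260, 1224 and 1274 in siSirt6 and 862, 873 and 891 in Control, a rise of 1.43-fold. The other two subunits listed, Nol11 and Wdr75, rose by only 0.21 ± 0.07 and 0.18 ± 0.06 on the log2 scale (SE). Both lost their calls with libraries scaled to listed totals (0.09 and 0.06) and with DESeq2, and with the length and GC trend taken out they stood at 0.34 and 0.29, beside 0.47 for Utp4. The difference from the other 3 was not tested.

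Imp3 and Imp4, which work with Mphosph10 on the U3 snoRNP, rose 1.29-fold and 1.31-fold, and Mphosph10 itself 1.26-fold. Imp3 had 1267, 1276 and 1208 in siSirt6 and 1025, 961 and 933 in Control. Its log2 fold change of 0.36 went to -0.01 (limma adjusted p = 0.914) once a smooth trend on length and GC was taken out. Rrp7a, an assembly factor of the processome, had 1781, 1870 and 1822 in siSirt6, against 1398, 1374 and 1408 in Control, and rose 1.31-fold. Rrp12 rose 1.45-fold, Noc4l and Nop14, which act together in the processome, both 1.35-fold, Utp25 1.34-fold and the largest processome protein, Utp20, 1.24-fold. Nol7, Nol10 and Utp11 rose between 1.25-fold and 1.29-fold. Tsr2, the escort of ribosomal protein Rps26, and Ltv1, which is released late from the 40S particle, rose 1.29-fold and 1.28-fold.

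The smallest rises of the class were those of the GTPase gene Bms1 (log2 0.13 ± 0.05 SE), Nol6 (0.17), Wdr75 and Utp3 (0.18), Nol11 and Nop9 (0.21), Utp23 (0.26) and Utp14a (0.28). Tsr1 encodes a GTPase-like factor that, in yeast, keeps late 40S particles from starting translation, and it was the 1 gene of this class that fell. It had 237, 247 and 283 normalised read counts in siSirt6, against 305, 341 and 339 in Control, 0.779 of the Control level (log2 -0.36 ± 0.09 SE; limma adjusted p = 5.13e-04). Of the exon bases of Tsr1, on chromosome 11 at 74898071 to 74909342 (GRCm38, plus strand), 32.3% overlap exons of Srr on the opposite strand. The library kit keeps strand, the sources used here do not say whether the counting used it, and Srr was not analysed here, so the share of its reads in Tsr1 was not tested. An overlap of at least 10% with a gene on the other strand was also found for Tsr2, Nop9, Noc2l, Nol7, Rrp7a, Utp23 and Utp14a. Of these partners, Fgd1, which overlaps Tsr2, and Ranbp9, which overlaps Nol7, were listed, and both fell (log2 -0.41 and -0.24).

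**Figure D2:**
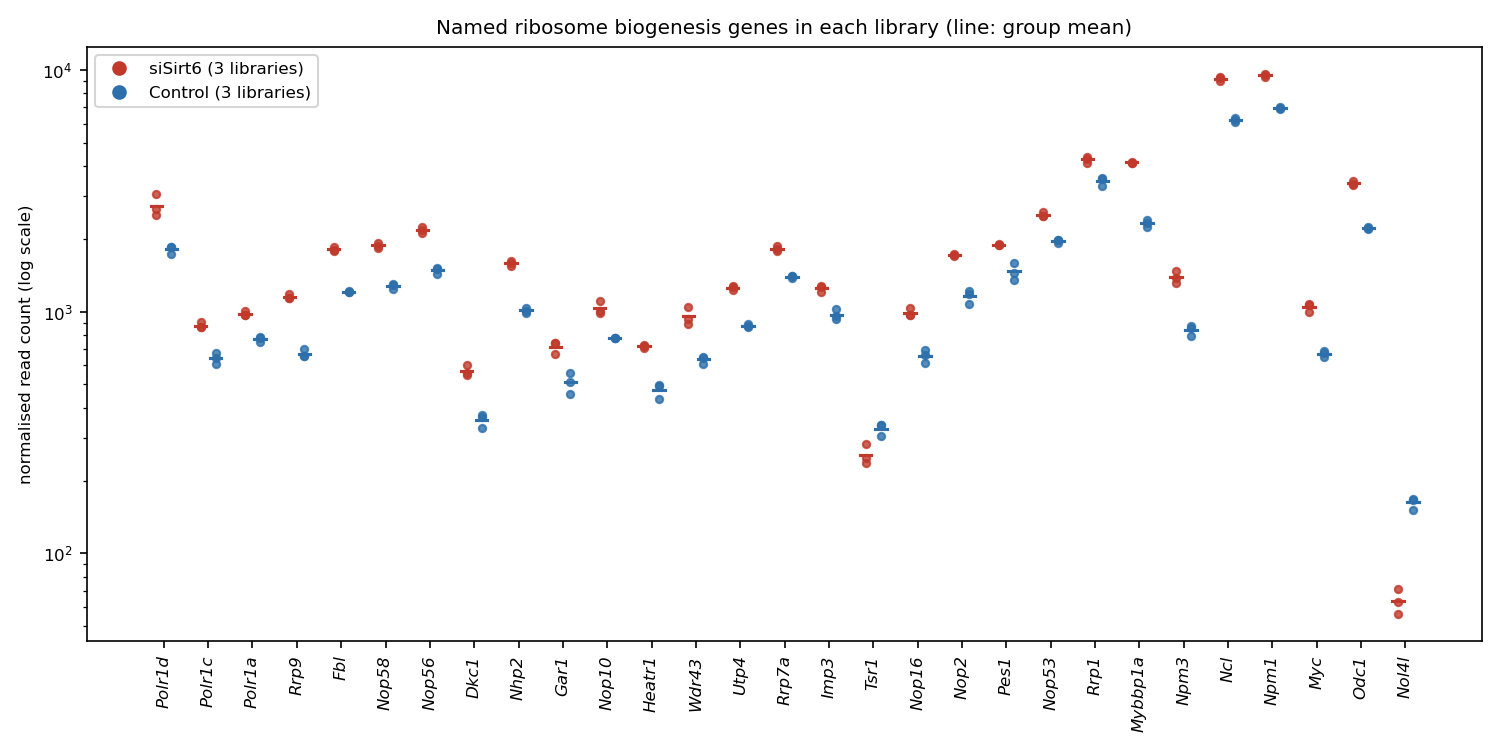
Normalised read count on a log scale in each of the 3 siSirt6 libraries (red) and 3 Control libraries (blue) for Tsr1, Nol4l and the 27 other ribosome biogenesis genes given by library in the text, with a line at each group's mean. The red points lie above the blue ones for 27 genes and below them for Tsr1 and Nol4l.

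All 20 genes of 60S assembly rose, beside 50.5% of all tested genes called higher. Their log2 fold changes ran from 0.17 to 0.59 with a median of 0.38. Nop16 had 1036, 966 and 966 normalised read counts in siSirt6, against 691, 661 and 614 in Control, and rose 1.51-fold (log2 0.59 ± 0.06 SE; limma adjusted p = 2.17e-11). Nop2, a methyltransferase of the large ribosomal RNA, had 1732, 1717 and 1698 in siSirt6 and 1071, 1217 and 1185 in Control, a rise of 1.48-fold. The WD-repeat gene Nle1 and Rrp15 followed at 1.45-fold and 1.44-fold. Noc2l and Ppan rose 1.33-fold, Nol12 1.32-fold, and Wdr74, Noc3l and the GTPase gene Gnl2 between 1.29-fold and 1.30-fold.

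The PeBoW complex, which is needed to process the precursor of the large subunit, was higher in all 3 subunits. Pes1 had 1892, 1906 and 1892 in siSirt6 and 1597, 1446 and 1357 in Control and rose 1.29-fold. Its Control libraries spread more widely (SD 122) than its siSirt6 libraries (SD 8.25). Bop1 rose 1.32-fold and Wdr12 1.13-fold (log2 0.17 ± 0.06 SE). The call of Wdr12 was lost with listed totals (0.06, limma adjusted p = 0.357), with DESeq2 and without siSirt6 replicate 2 (0.13). With the length and GC trend taken out the order turned round, with Wdr12 at 0.55, Pes1 at 0.40 and Bop1 at 0.28. That value of Wdr12 rests on an annotated transcript of 10012 nt, and which transcript the cells made was not tested. Nop53, which brings the RNA exosome to the particle, had 2598, 2485 and 2483 in siSirt6 and 1971, 1973 and 1932 in Control, a rise of 1.29-fold. Rrp1, the most abundant gene of the class, had 4300, 4375 and 4117 in siSirt6 and 3560, 3550 and 3301 in Control, and rose 1.23-fold. Its paralog Rrp1b, at 273 ± 10.9 in siSirt6 and 223 ± 28.3 in Control (SD, n = 3 each), rose 1.22-fold. Rrp8, Nip7 and Nol9, the kinase that prepares an end of the processed RNA, rose between 1.21-fold and 1.23-fold, and Rrs1, which docks the 5S particle, 1.13-fold.

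The 7 nucleolar chaperones and scaffolds all rose, beside 50.5% of all tested genes called higher. They included the 2 most abundant members and the largest single rise. Mybbp1a, a nucleolar protein that binds MYB and p53, had 4136, 4176 and 4142 normalised read counts in siSirt6, against 2327, 2398 and 2246 in Control. It rose 1.79-fold (log2 0.84 ± 0.03 SE; limma adjusted p = 2.73e-22), and it is the gene on chromosome 11 at 72441355 to 72451768 (GRCm38, plus strand). Nucleolin, Ncl, had 9288, 9360 and 8977 in siSirt6 and 6347, 6116 and 6186 in Control, a rise of 1.48-fold. The histone chaperone nucleophosmin, Npm1, had 9543, 9632 and 9337 in siSirt6 and 7051, 6878 and 6979 in Control, a rise of 1.36-fold. Its relative Npm3 had 1313, 1477 and 1377 in siSirt6 and 876, 858 and 795 in Control and rose more, 1.65-fold (log2 0.72 ± 0.05 SE). All 4 showed 3 siSirt6 values above every Control value, and groups did not overlap in 96.8% of all tested genes. Gnl3, nucleostemin, rose 1.39-fold, the snoRNP chaperone Nolc1 1.34-fold and the RNA helicase gene Ddx21 1.23-fold. Npm1 had the highest level of all members per kilobase of transcript, 5820 in siSirt6 and 4268 in Control. Genes of this kind have processed copies in the genome, and the authors' counting could have split reads between them.

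Both growth regulators in the set rose, beside 50.5% of all tested genes called higher. Myc, on chromosome 15 at 61985391 to 61990374 (GRCm38, plus strand), had 1061, 1077 and 993 normalised read counts in siSirt6, against 649, 672 and 690 in Control. It rose 1.56-fold (log2 0.64 ± 0.05 SE; limma adjusted p = 1.11e-12). Odc1, the first enzyme of polyamine synthesis and a known MYC target, had 3464, 3380 and 3342 in siSirt6 and 2247, 2225 and 2193 in Control, a rise of 1.53-fold (log2 0.61 ± 0.03 SE; limma adjusted p = 2.92e-18). The rule also matched Nol4l by its name. It is a paralog of Nol4 with no established role in ribosome assembly. Nol4l had 71.2, 62.9 and 56.2 in siSirt6, against 167, 168 and 152 in Control, and fell to 0.391 of its Control level (log2 -1.35 ± 0.15 SE). It was the least abundant member in Control, and with it left out 66 of 67 genes rose and the median was still 0.39.

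**Figure D3:**
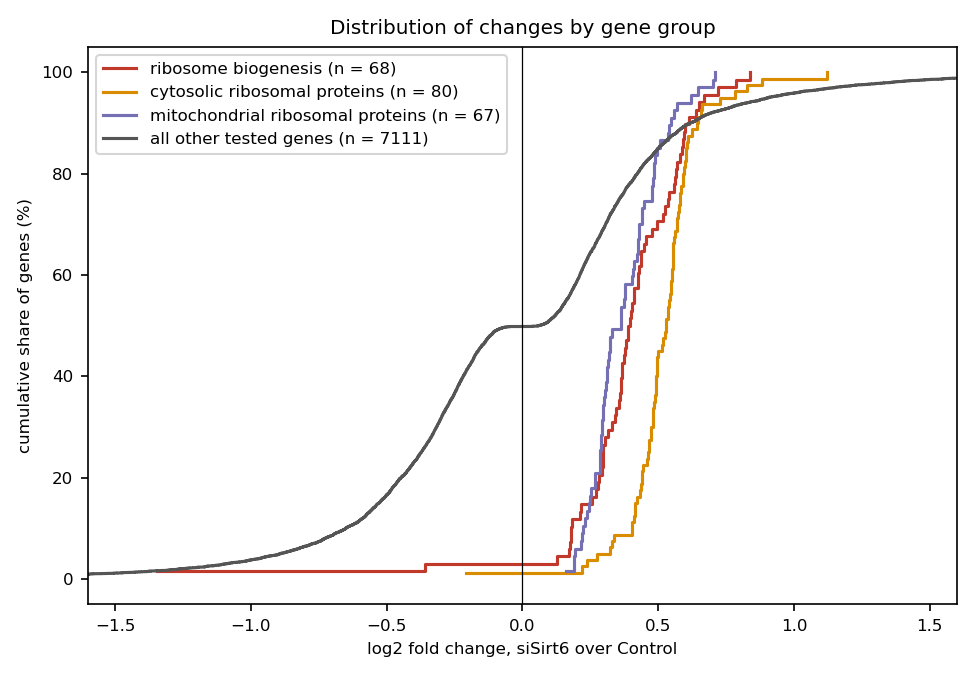
Cumulative share of genes (vertical axis, percent) by log2 fold change of siSirt6 over Control (horizontal axis) for 68 ribosome biogenesis genes, 80 cytosolic and 67 mitochondrial ribosomal protein genes and 7111 other tested genes. At the median the biogenesis curve (0.39) lies between those of the mitochondrial (0.36) and cytosolic (0.53) groups, an order that does not hold with the length and GC trend removed (0.36, 0.19 and 0.16), the curve of other genes is flat near zero, and the axis ends before the most extreme genes.

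Ribosomal proteins, the cargo of this pathway, moved the same way. Cytosolic ribosomal protein genes had a median log2 fold change of 0.53, with 79 of 80 higher and Rpl22l1 lower. Mitochondrial ribosomal protein genes, which are assembled in another compartment, had a median of 0.36 with 67 of 67 higher. Of all tested genes, 50.5% were called higher. The summed levels of cytosolic and mitochondrial ribosomal protein genes rose by ratios of 1.43 and 1.29, beside 1.37 for the biogenesis genes. The sum of all listed values was also higher in siSirt6, as given above. With the length and GC trend removed the medians were 0.36 for the biogenesis genes, 0.16 for cytosolic and 0.19 for mitochondrial ribosomal protein genes, so the order of the groups depends on that step. No test of the differences between these groups was made.

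Genes of the same pathway outside the name rule are given by list, beside 50.5% of all tested genes called higher. Of 46 other 60S assembly genes 33 were tested and all 33 rose, with a median log2 fold change of 0.38. Grwd1, whose yeast relative is a chaperone of ribosomal protein Rpl3, had the largest change at 1.98-fold, with 820, 817 and 808 in siSirt6 and 408, 426 and 402 in Control. Ebna1bp2, Mrto4 and Ddx24 rose 1.52-fold, 1.58-fold and 1.31-fold. Of 45 other 40S assembly genes 28 were tested, of which 27 rose and 1, the kinase gene Riok3, fell (log2 -0.14). Bysl, at 1.59-fold, Nob1, the nuclease that makes the last cut of the small ribosomal RNA, at 1.47-fold, Ruvbl2 at 1.53-fold and Znhit6 at 1.26-fold were the 4 with the smallest p. Of 26 genes of the RNA exosome and RNase MRP 14 were tested, 13 of them higher, with Exosc2 at 1.6-fold, Pop4 at 1.42-fold, Rpp30 at 1.41-fold and Rpp21 at 1.36-fold. The nuclease gene Xrn2 fell (log2 -0.18).

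Among 21 other genes of ribosomal DNA transcription, 16 were tested, 11 rose and 5 fell. The polymerase I subunit gene listed as Cd3eap rose 1.79-fold, with 824, 819 and 819 in siSirt6 and 460, 458 and 457 in Control. Polr2e and Polr2l, subunits shared by the nuclear polymerases, rose 1.57-fold and 1.42-fold. Tcof1, treacle, which supports polymerase I in neural crest and other cells, rose 1.38-fold, and the initiation factor gene Rrn3 1.32-fold. Ubtf, the architectural factor of ribosomal DNA, changed least of the list at 1.07-fold. The 5 genes that fell were Baz2a, a subunit of the nucleolar remodelling complex that silences ribosomal DNA (log2 -0.48), its ATPase partner Smarca5 (-0.15), the terminator protein gene Ttf1 (-0.39), Top1 (-0.34) and Kdm2b (-0.33).

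**Figure D4:**
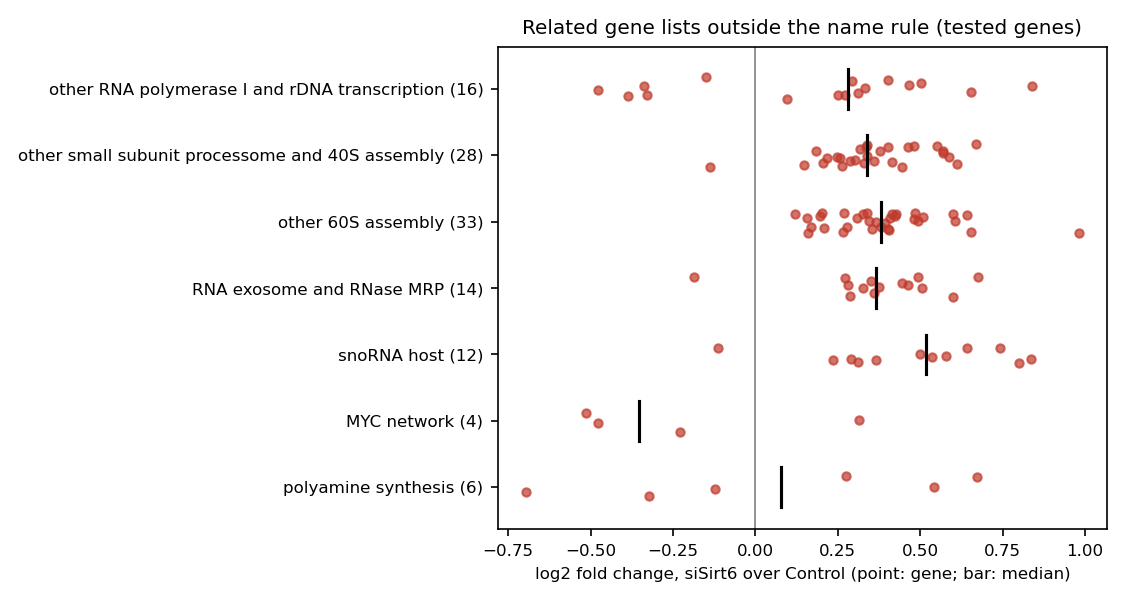
Log2 fold change of siSirt6 over Control (horizontal axis) of the tested genes of 7 related lists outside the name rule, 1 point per gene and a bar at the median, with the number tested in brackets. The 60S assembly points all lie right of zero, while MYC network and polyamine genes fall on both sides.

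Several members carry snoRNA genes inside them: 10 members held 25 annotated snoRNA genes on their own strand, with 5 in Nop56, 4 in Nop58 and 3 each in Ncl, Gnl3 and Wdr43. Of these 10 hosts, 9 rose and Tsr1 fell, beside 66 of all 68 members that rose and 50.5% of all tested genes called higher. In a further list of snoRNA hosts, non-coding except for Taf1d, 11 of 12 tested genes were higher, with a median log2 fold change of 0.52. Snhg15 rose 1.79-fold, Zfas1 1.68-fold, Snhg18 1.56-fold and Snhg6 1.41-fold, while Rian fell slightly (log2 -0.11).

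Short genes tended to be higher and long genes lower in these tables. Spearman's rho between transcript length and log2 fold change was -0.44 across 7130 tested genes and -0.35 across 67 members without Nol4l. Genes share libraries and are no replicates. With a smooth trend on length and GC content removed, 62 members were higher and 2 lower (36.9% of all tested genes were then called higher), and their median was 0.36. Long members gained from the removal. Ncl, whose longest principal annotated transcript has 8202 nt, had a log2 fold change of 0.90 after it, Heatr1 0.87 and Polr1a 0.63. Which transcripts the cells made was not tested, so these values rest on the annotated lengths. Short members lost: Npm3 went to 0.34, Nhp2 to 0.31, Fbl to 0.28, Gar1 to 0.21, Polr1c to 0.17 and Nop10 to 0.12, and the calls of Wdr74 (0.08), Rrs1 (0.02), Imp3 (-0.01) and Utp3 (-0.01) were lost.

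**Figure D5:**
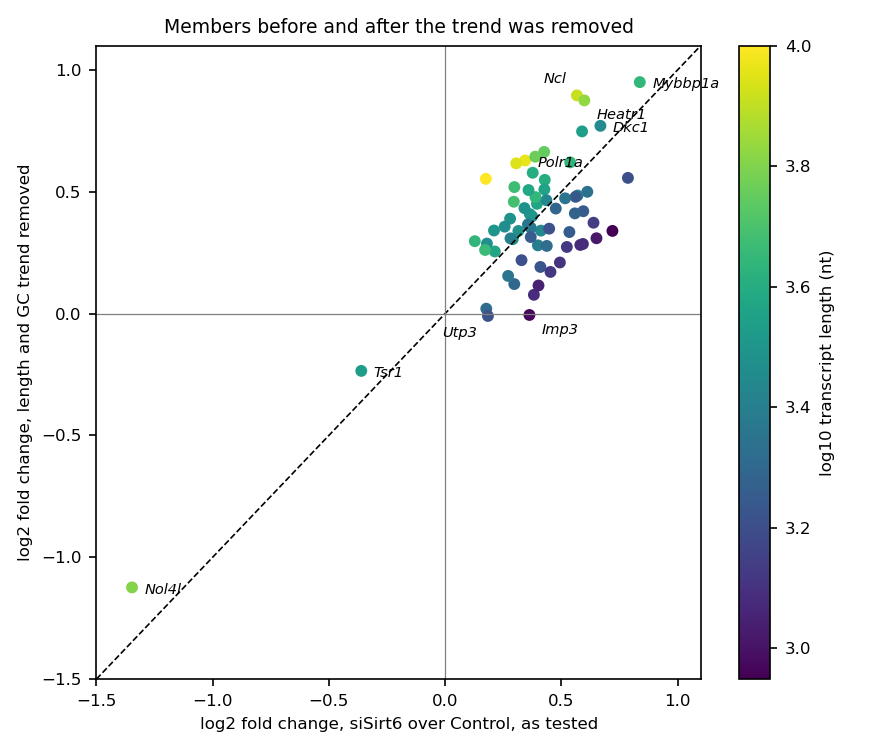
Log2 fold change of siSirt6 over Control for the 68 members as tested (horizontal axis) and with the trend on length and GC content removed (vertical axis), coloured by transcript length on a log10 scale. Genes with long annotated transcripts, such as Ncl and Polr1a, lie above the dashed line of equal values. Those with short ones, such as Imp3, lie below it.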

How the data were processed

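RNA was extracted with Trizol and sequenced as stranded mRNA libraries, per the labels' protocols. Trimmomatic, HISAT2, Cufflinks and HTSeq appear in the submitters' processing notes beside the build mm10, with no version or role. The deposited signal values are whole reads that the authors divided by 1 factor per library (100% whole within 0.001 reads), called normalised read counts here. The sources used here do not give how the factors were obtained or the 7384 genes chosen. Values were tested on log2(value + 1) by the 2-sided moderated test of limma 3.58.1 (R 4.3.3; mean trend, robust prior), 3 siSirt6 against 3 Control libraries, for the 7179 genes with at least 10 in at least 3 libraries. Benjamini-Hochberg adjustment ran over these genes, with a threshold of 0.05. Fold changes given as N-fold are ratios of group means. edgeR 4.0.16 and DESeq2 1.42.0 were run on the whole reads of 5 libraries, since the step of siSirt6 replicate 1 lies too near 1 for an automatic check of the unit. GENCODE vM21 (GRCm38) gave positions, lengths and GC content, and holds 7331 of the 7384 identifiers. Values per kilobase divide by the length of the principal transcript, the longest one where several ranked equally. The length trend used the same lengths. The test was also tried on simulated data in which few genes changed, unlike in these data, and its outcome is not given here. Named members are, in each role, the 3 most abundant, the 2 with the largest change and every one that fell; other lists give the 4 smallest p and exceptions, with a few more chosen after their values were seen. The members and lists were chosen with earlier results of these data known. Members of the rule outside the tables, such as Mak16, Utp15, Utp18 and Utp6, were not analysed here. Windows of promoters came from RefSeq.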

Additional observations from a re-analysis of the deposited data

How the results depend on the processing

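Of the 68 members, 56 kept their direction and their side of the threshold in all 18 alternatives, and Tsr1 and Nol4l were lower in each. Members called higher numbered 56 with libraries scaled to listed totals, 58 with DESeq2 (41.0% of all genes higher), 62 with the length and GC trend removed, 64 with adjustment over the 55450 annotated genes (45.9% higher) and 66 with the other scalings, pseudocounts, filters and edgeR. Listed totals moved the median of all genes by -0.12 and gave 43.2% of calls higher in place of 50.6%. They left 3 members past 1.5-fold in place of 11, TMM left 7, and the members' median log2 fold change was 0.27 with listed totals, 0.37 with TMM, 0.36 with the trend removed, with or without the replicate block, 0.36 with edgeR and 0.36 with DESeq2. Its gap of 0.31 to the median of all genes could hardly change under listed totals, which shift every gene by nearly the same amount. The calls lost there were those of Bms1, Nol6, Nol11, Nop9, Rrp1b, Rrs1, Utp3, Utp23, Wdr12 and Wdr75. Imp3 (-0.0058) and Utp3 (-0.0099) turned barely below zero with the trend removed (limma adjusted p = 0.914 and 0.854), also with the replicate block. The cause of these changes was not tested. Without 1 library at a time, 64 to 66 members were higher, 2 lower, 8 to 12 past 1.5-fold, the median ran from 0.39 to 0.40, 3540 to 3577 genes were higher and 3445 to 3474 lower, and Sirt6 lay between -2.31 and -2.06. The calls lost were those of Rrp1b and Utp23 without Control replicate 2, Nol11 without Control replicate 1 and Wdr12 without siSirt6 replicate 2. Replicate numbers did not pair the libraries (correlations of deviations -0.0195, 0.0268 and -0.000793). The fit with a replicate block called 3629 genes higher and 3540 lower, and the members' calls were the same. Depth outside the listed genes is unknown, so levels cannot be put on the scale of whole libraries.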

Other observations

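Apart from Myc, which rose, 4 of 12 other genes of the MYC network were tested. Of these 3 fell, where 49.3% of all tested genes were called lower. Mxd4, which competes with MYC for its partner MAX, had 2910, 2795 and 2668 normalised read counts in siSirt6, against 3959, 4020 and 3967 in Control, 0.701 of the Control level (log2 -0.51 ± 0.03 SE). Its relatives Mxd3 and Mnt fell as well, to 0.72 and 0.85 of their Control levels, and Zbtb17, a partner through which MYC represses genes, rose 1.25-fold. Max was not analysed here.

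In polyamine metabolism, 3 of 6 tested genes rose beside Odc1 and 3 fell. Of all tested genes, 50.5% were called higher and 49.3% lower. Srm, which makes spermidine, had 3888, 3811 and 3800 in siSirt6 and 2696, 2564 and 2643 in Control, a rise of 1.46-fold, and the spermine synthase gene Sms rose 1.6-fold. The antizyme genes Oaz1 and Oaz2, whose products send ornithine decarboxylase to degradation, fell to 0.92 and 0.80 of their Control levels, and the spermine oxidase gene Smox fell to 0.617. Sat1, which acetylates polyamines for breakdown and export, rose 1.21-fold. Of the other marker lists, 7 of 8 tested smooth muscle genes rose and Smtn fell. Of 3 tested adipocyte genes 2 rose, and of 3 tested genes of Schwann cells and neurons Tubb3 rose and 2 fell.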
